A study of Mus musculus with 33 samples.

Results

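The cytoplasmic ribosomal protein genes encode the proteins of the small (Rps) and large (Rpl) subunits of the ribosome that translates nuclear-encoded mRNAs. The 84 genes described here were chosen by gene symbol alone: Rps or Rpl followed by a number, plus Rpsa, Rplp0, Rplp1 and Rplp2, without rows named as pseudogenes and without the Rps6k kinases. They are 84 of the 37973 genes in the deposited table, 33 small subunit and 51 large subunit genes by the start of the symbol. No measured value enters that rule, but the family was put forward with earlier results of these data in view, so its tests are not independent evidence of a direction.

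The samples are mouse embryonic fibroblasts (MEFs) taken from embryos of 14-15 days post coitum and reprogrammed towards pluripotency. Most carry Col1a1-OSKM+/-, a doxycycline-inducible cassette of Oct4, Sox2, Klf4 and Myc, together with Rosa26-rtTA+/- (the doxycycline-dependent activator) and Oct4-GFP+/- (a pluripotency reporter). All were kept in 1 µg/ml doxycycline, and the protocol names a lentiviral transduction before induction; the arms are labelled control and Dppa2/4 overexpression, the latter with a pair of DNA-binding proteins of early embryos and pluripotent cells. Cells were sorted at days 2, 4, 8, 11 and 14 into Thy1+SSEA1-, Thy1+SSEA1+ (Dppa2/4 arm, days 2 and 4), Thy1-SSEA1-, Thy1-SSEA1+ (intermediate) and GFP+ cells. A further pair of libraries came from rtTA-MEFs, 1 library in each arm, whose genotype lists Rosa26-rtTA+/- and Oct4-GFP+/- but no Col1a1-OSKM allele. Their titles say day 2, whereas their descriptions say day 1 and name OSKM. Polyadenylated RNA was sequenced, and each combination of arm, day and gate is 1 library, so 32 libraries were used and no group had a replicate. Tests below therefore compare arms or gates across days and gates as blocks, and their p-values measure only how evenly a difference recurs over those blocks.

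Ribosomal protein mRNAs are made in very large amounts because every ribosome needs 1 copy of nearly every protein, and most of them begin with a 5′ terminal oligopyrimidine (TOP) tract through which mTOR and Larp1 control their translation. Rpl5 and Rpl11 form, with 5S rRNA, the particle that can bind Mdm2, and Rplp0, Rplp1 and Rplp2 build the stalk that recruits translation factors. A few members are paralogs of a ubiquitous gene with restricted expression: Rpl10l and Rpl39l are known from the male germ line, where they stand in for the X-linked Rpl10 and Rpl39, and Rpl3l from striated muscle. Nucleolar ribosome assembly factors and mitochondrial ribosomal proteins are separate sets, used below for comparison.

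The promoters around the annotated starts of Rpl18, a member with a long pyrimidine run, and of the paralog pairs on which the gate results turn are shown here, from 60 bases before to 20 bases after the RefSeq start on GRCm38.p6, with the longest run of pyrimidines within 20 bases either side of the start in capitals. Rpl18 lies at chr7:45718011-45718090 on the + strand, Rpl39 at chrX:37085203-37085282 on the - strand, Rpl39l at chr16:10170168-10170247 on the + strand, Rpl10 at chrX:74270756-74270835 on the + strand and Rpl10l at chr12:66284382-66284461 on the - strand.
Rpl18: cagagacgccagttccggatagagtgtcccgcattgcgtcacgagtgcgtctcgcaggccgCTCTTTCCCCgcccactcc
Rpl39: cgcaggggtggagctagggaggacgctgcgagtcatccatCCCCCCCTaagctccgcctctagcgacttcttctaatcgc
Rpl39l: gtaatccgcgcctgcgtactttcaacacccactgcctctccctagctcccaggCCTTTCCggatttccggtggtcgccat
Rpl10: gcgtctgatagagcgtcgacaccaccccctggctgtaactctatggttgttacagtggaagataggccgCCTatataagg
Rpl10l: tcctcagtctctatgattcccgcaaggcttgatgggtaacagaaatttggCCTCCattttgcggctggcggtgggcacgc
Inside that window the longest run was 10 bases in Rpl18, 8 in Rpl39, 7 in Rpl39l, 5 in Rpl10l and 3 in Rpl10. Runs that cross the window's edge, as in Rpl39 and Rpl39l, were counted only for their bases inside it. Of the 62 members with a promoter entry, 28 (45.2%) held a run of at least 8 pyrimidines on the gene's strand in that window, against 15.9% of 27025 promoters. Searched on both strands of the 300 bases from 250 before to 50 after the start, the ETS-type motif CCGGAAG was in 24 of 62 members (38.7%) and 9.12% of all promoters. CTCGCGAG was in 6 members (9.68%) and 0.958% of all, the YY1-type AAGATGGC in 5 (8.06%) and 2.88%, and the Sp1-type GGGCGG in 37 (59.7%) and 35.9%. The E-box CACGTG, which Myc can bind, was in 5 members (8.06%) against 7.24% of all, and TATAAA in 6 (9.68%) against 14.2%. These matches are descriptions of letters at annotated starts, whose exact base can be off, and were not tied to any measured change.

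All 84 members passed the filter on low values (at least 1 FPKM, a read level scaled to transcript length and library size, in at least 2 of the 32 libraries), as did 17242 genes in all. By mean level per length, 47 members were among the 100 most abundant genes of the table and 67 among the top 200, and 80 held at least 10 FPKM in every library. Rps15a, a small subunit protein, led with a mean of 5688 FPKM, followed by Rpl32 (3848), Rpl13a (3724), Rps20 (3566) and Rps27 (3225). At the other end stood the paralogs Rpl3l (0.406), Rpl10l (1.67), Rps4y2 (19.2), Rpl39l (21.6) and Rpl7l1 (66.3). Rps4y2 (ENSMUSG00000063171, chromosome 6) is annotated in GENCODE vM21 as a transcribed processed pseudogene, while the other 83 members are protein coding. Nearly every member has processed copies in the genome; 155 rows named as pseudogenes of the family are in the table, and reads of a gene and its copies cannot be fully told apart, so levels are uncertain to that extent.

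The table's libraries had an implied depth of 14.1 to 42.7 M fragments, read from the value that 1 fragment gives in genes with a single annotated transcript. At the transcript level, the fibroblast collagen Col1a1 ran from 84.6 to 724 FPKM in Thy1+SSEA1- libraries and from 6.21 to 17.5 in GFP+ libraries, and Nanog from 1.42 to 4.69 and from 260 to 360. Thy1 mRNA was not absent from Thy1-SSEA1- libraries (39.5 to 230 FPKM). Ptprc, a pan-leukocyte gene, was at most 0.155 FPKM and Cdh5, an endothelial gene, at most 0.148 in every library, whereas Cd68 reached 54.1 to 82.6 in the day 14 Thy1-SSEA1+ and GFP+ libraries. Pecam1, the other gene of the endothelial list, was not absent. It ran from 17.1 to 65.0 FPKM in GFP+ libraries and stood at 18.3 in the control day 14 Thy1-SSEA1+ library. The library labelled Dppa2/4 day 4 Thy1+SSEA1- held Dppa2 at 0.354 FPKM, the control level, where the other Dppa2/4 libraries of that gate held 171 to 599, and the control day 11 GFP+ library's description names another gate. Results are given without these libraries where that matters.

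Ribosomal protein mRNA made up between 8.74% and 20.7% of all FPKM in a library. The highest shares were those of the control arm at day 14, in every gate sampled there: 18.8% in Thy1+SSEA1-, 20.2% in Thy1-SSEA1+ and 20.7% in GFP+ cells. The lowest was the Dppa2/4 day 11 Thy1-SSEA1- library, followed by the day 2 Thy1-SSEA1- libraries of the Dppa2/4 arm (9.56%) and of the control arm (10.2%). The Dppa2/4 libraries of day 14 lay between 14.9% and 15.8%, below every control library of that day. In rtTA-MEFs the share was 13.7% in the control and 11.2% in the Dppa2/4 library. In bulk samples, fewer cells of a type and less RNA per cell cannot be told apart, and a share of FPKM also falls when other genes rise.

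**Figure D1:**
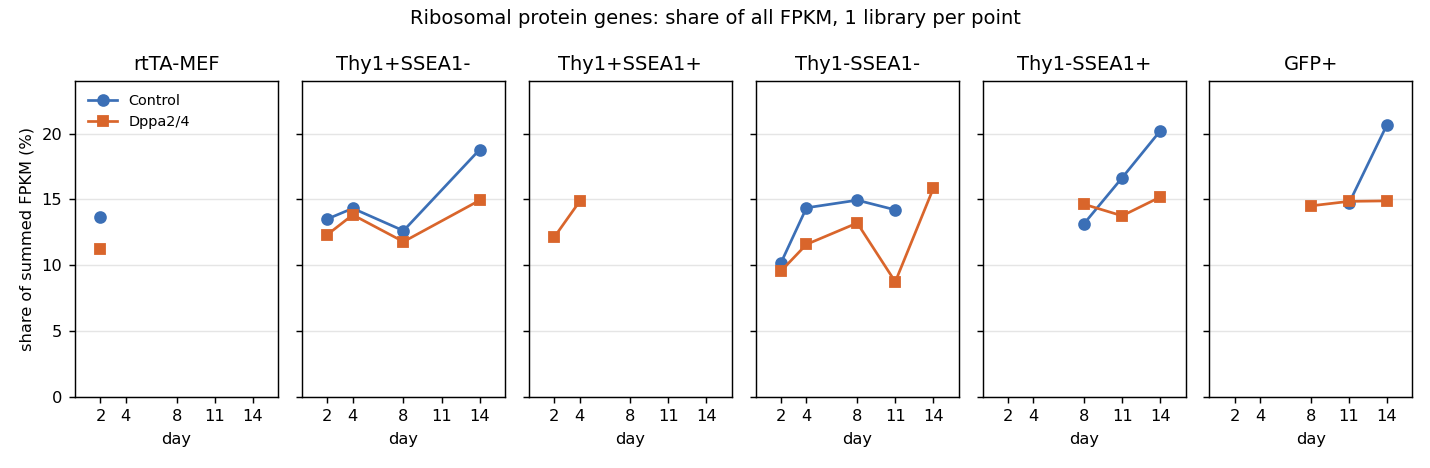
Share of the summed FPKM (%) taken by the 84 ribosomal protein genes against day, in 1 panel per gate, with 1 library per point (circles control, squares Dppa2/4; lines join days). The control points at day 14 reach 18.8 to 20.7%, above all others, and the lowest point is the Dppa2/4 day 11 Thy1-SSEA1- library at 8.74%.

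The members' highest and lowest values fell in a few libraries of different gates. Of the 80 members with at least 10 FPKM throughout, 72 had their highest value in a control day 14 library (30 in GFP+, 29 in Thy1+SSEA1- and 13 in Thy1-SSEA1+ cells) and 62 had their lowest in the Dppa2/4 day 11 Thy1-SSEA1- library. Within the control arm, day 14 was the highest day for 79 of 84 members among 4 Thy1+SSEA1- libraries, for 83 among 3 Thy1-SSEA1+ libraries and for 82 of the 84 among 2 GFP+ libraries. In the Dppa2/4 arm the same counts were 49, 41 and 51, among 4, 3 and 3 libraries, and 69 of 84 among its 5 Thy1-SSEA1- libraries. Relative to each gene's own mean over the 32 libraries on the log2(FPKM + 1) scale, the median of the 80 members stood at 0.70, 0.74 and 0.79 in those control day 14 libraries (Thy1+SSEA1-, Thy1-SSEA1+, GFP+). Other genes of at least 10 FPKM everywhere and in the members' range of GC content (3730 genes) had medians of 0.01, 0.11 and 0.07 there. In the Dppa2/4 day 11 Thy1-SSEA1- library the members' median deviation was -0.86 and that of the other genes -0.19.

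**Figure D2:**
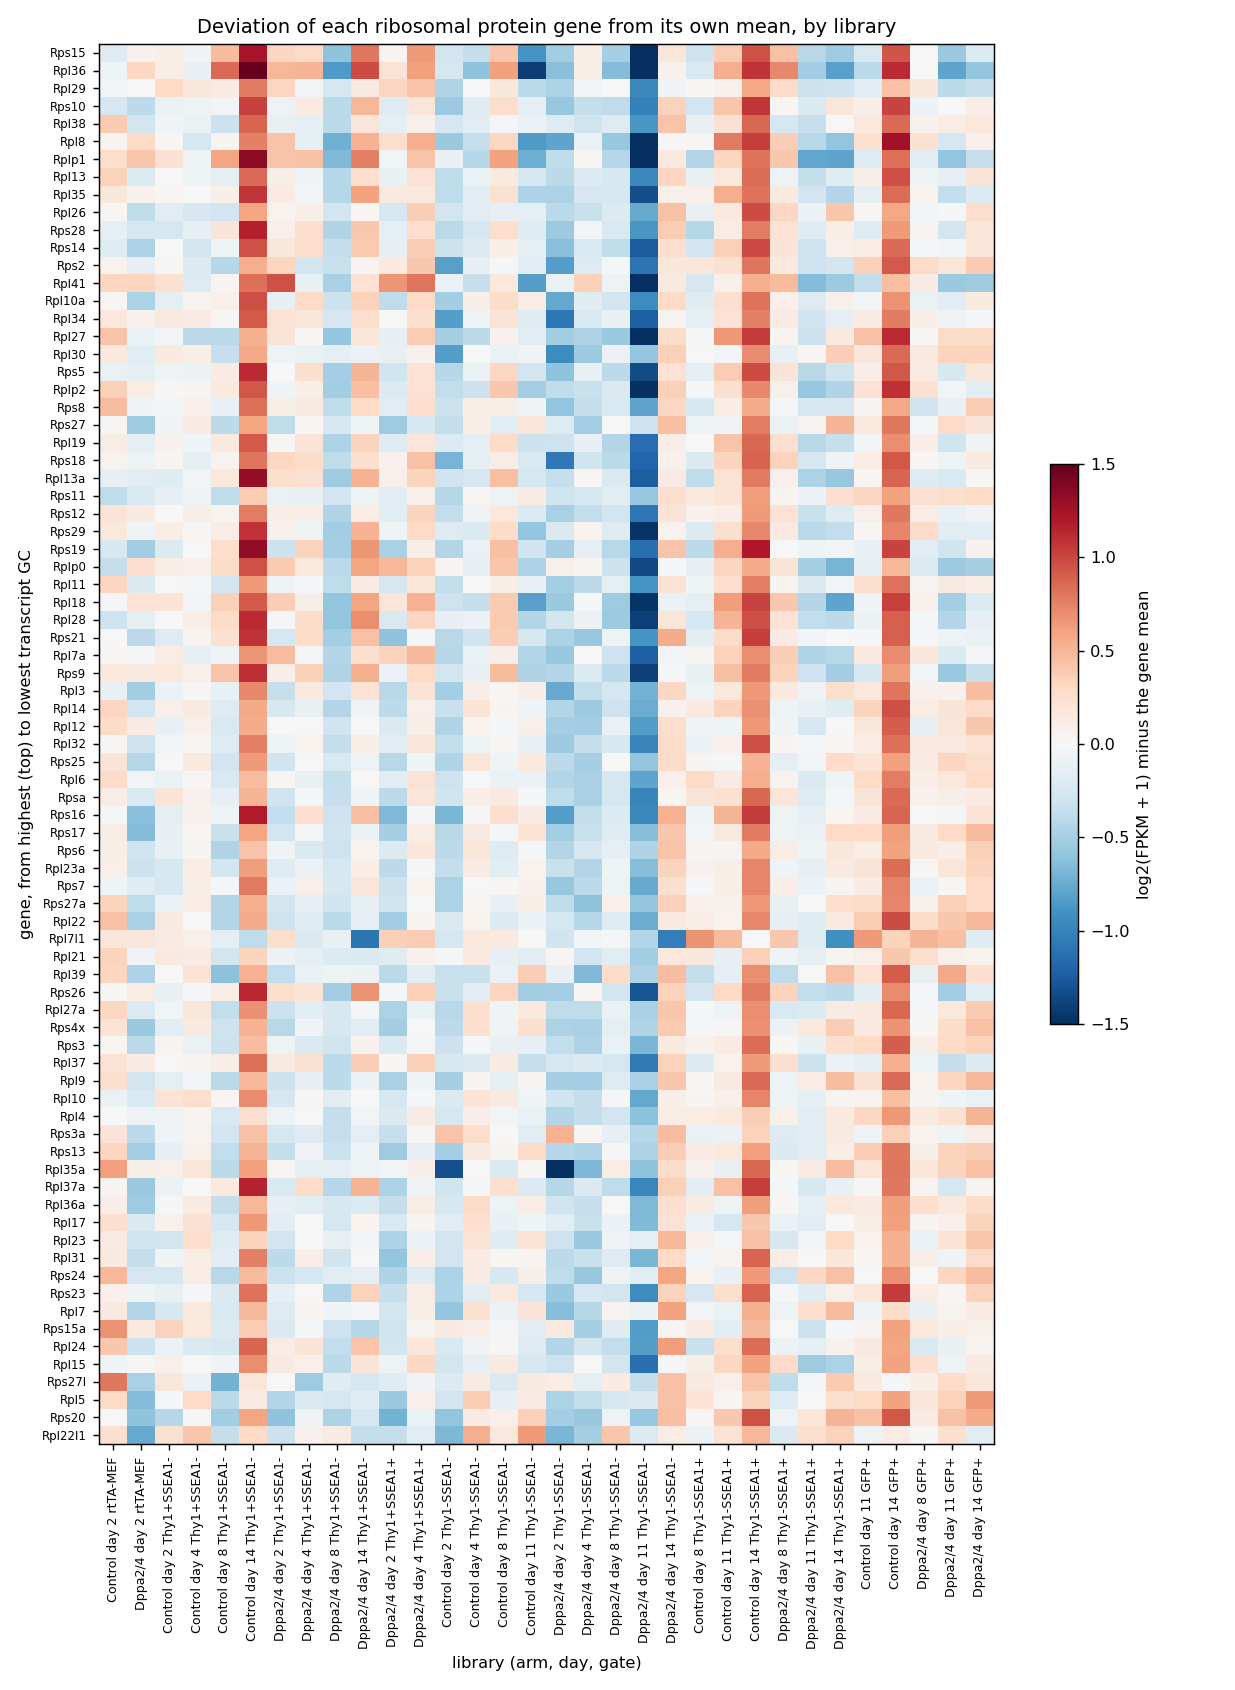
Deviation of 79 members (rows, ordered by transcript GC content from the top) from its own mean in each of the 32 libraries (columns), as log2(FPKM + 1), with red above and blue below the mean. The 3 control day 14 columns are red down nearly all rows and the Dppa2/4 day 11 Thy1-SSEA1- column is blue, while Rpl7l1 follows the mean of the others least over the 32 columns (r = 0.07).

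Pairs of members had a median Pearson r of 0.74 over the 32 libraries, as a description over 3160 pairs that share libraries, and a member's median r with the mean of the others was 0.86. Rpl11 (0.98), Rpl32 (0.98) and Rpl13 (0.97) followed the family most closely. The paralogs followed it least: Rpl7l1 (0.07), a relative of Rpl7, then Rps27l (0.36), a p53-inducible relative of Rps27, and Rpl22l1 (0.39), a relative of Rpl22. Large and small subunit genes kept a nearly fixed proportion, with the large subunit sum 1.03 to 1.21 times the small subunit sum.

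The size of the swing differed between members. Between their lowest and highest library the 80 members spanned 1.91-fold to 11.0-fold, with a median of 3.42-fold. Rpl36, a large subunit protein, ran from 38.8 FPKM in the Dppa2/4 day 11 Thy1-SSEA1- library to 428 in the control day 14 Thy1+SSEA1- library. Rplp1, of the stalk, ran from 199 to 1904 FPKM between the same libraries. Rpl21, also of the large subunit, was the steadiest, from 513 to 979 FPKM, a 1.91-fold range. Rps3a was close to it, with a 1.93-fold range from 386 to 746 FPKM.

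Members whose transcripts are rich in G and C swung more. Transcript GC content ran from 40.6% to 62.4% over the 80 members, with a median of 51.6%. It is that of the annotated transcript with the longest coding sequence, which need not be the main one in these cells. The transcript used is long for some members, with 5179 bases for Rps15a, 4920 for Rpl24 and 3706 for Rps20. The median SD over libraries (log2) was 0.45 for the 40 GC-rich members and 0.35 for the 40 GC-poor ones, and 0.45 and 0.41 for other genes divided at the same GC content. Spearman's rho between SD and GC content was 0.52 over the 80 members and 0.10 over the 3730 other genes, across genes that share libraries. In the Dppa2/4 day 11 Thy1-SSEA1- library GC-rich members lay below GC-poor members by a median difference of -0.51, and GC-rich other genes lay at -0.63 against GC-poor other genes. In the control day 14 Thy1+SSEA1- library the differences were 0.39 among members and 0.60 among other genes. Over the 32 libraries the contrasts of members and of other genes had a Spearman's rho of 0.91, given as a description of libraries of differing gate and day. The control day 14 GFP+ library, with members highest, had contrasts of 0.18 and 0.23. In other libraries level and contrast had opposite signs, as in control day 8 Thy1+SSEA1- cells, where the members' median deviation was -0.17 and their GC contrast 0.33. The part of GC content in the results below was not tested.

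**Figure D3:**
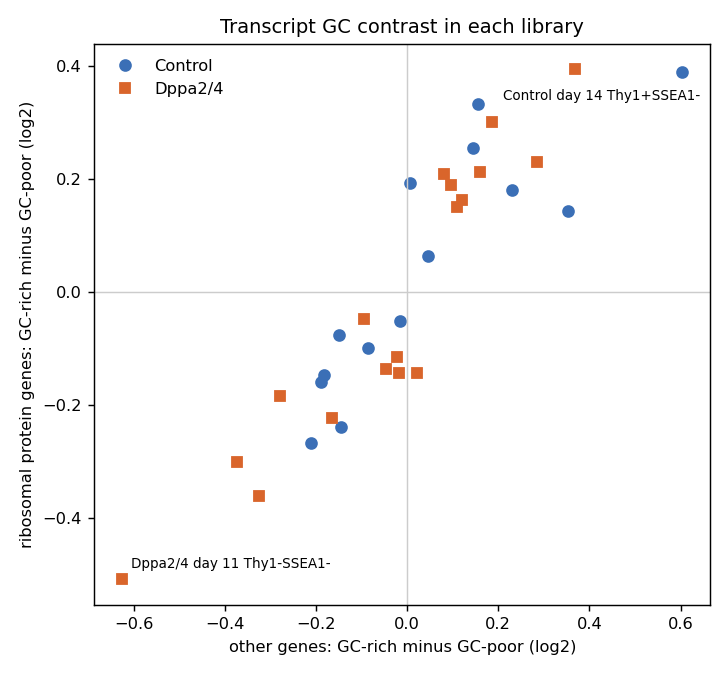
Median log2 deviation of GC-rich minus GC-poor genes in each library, for other genes (x) and for ribosomal protein genes (y), with 1 point per library (circles control, squares Dppa2/4). The points run from -0.63 and -0.51 in the Dppa2/4 day 11 Thy1-SSEA1- library to 0.60 and 0.39 in the control day 14 Thy1+SSEA1- library.

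The comparison of arms asked whether the Dppa2/4 arm held a different level of these mRNAs within the same day and gate. In the GFP+ pairs the arms hardly differed in Dppa2 and Dppa4 mRNA themselves. At days 11 and 14 Dppa2 stood at 66.1 and 45.4 FPKM in the control and at 61.5 and 54.0 in the Dppa2/4 arm. Dppa4 stood at 85.0 and 91.1 against 83.8 and 97.8. Those pairs therefore compare the labelled arms, not cells of different Dppa2/4 mRNA level. Ribosomal protein genes were lower in the Dppa2/4 arm: 45 of 84 passed the test in that direction and 0 in the other, over 13 pairs of libraries (limma on log2(FPKM + 1) with day and gate as a block, adjusted p at most 0.05 after Benjamini-Hochberg adjustment over all genes). Of all genes tested, 7.6% were lower and 15.9% higher. The median change of the members was -0.30 (log2), against 0.03 for all genes, and 81 of 84 estimates were below 0. Both subunits took part, with 18 of 33 small subunit genes (median -0.29) and 27 of 51 large subunit genes (median -0.30).

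The 5 largest median differences were in pairs of days 11 and 14. The members' median difference was -0.78 at day 14 in Thy1-SSEA1+ cells, where 84 of 84 members were lower, -0.73 at day 11 in Thy1-SSEA1- cells (81 of 84) and -0.58 at day 14 in Thy1+SSEA1- cells (82 of 84). It was -0.54 at day 14 in GFP+ cells (81 of 84) and -0.34 at day 11 in Thy1-SSEA1+ cells (72 of 84), but -0.11 at day 11 in GFP+ cells (59 of 84). In Thy1-SSEA1- cells it was -0.27 at day 4 and -0.22 at day 8, and in Thy1+SSEA1- cells -0.02 at day 4 and -0.18 at day 8. At day 2 it was -0.02 in Thy1+SSEA1- and -0.06 in Thy1-SSEA1- cells, and at day 8 in Thy1-SSEA1+ cells it was 0.08. The count and the median depended on these libraries: 3 members were lower without day 14 (median -0.20), 3 without day 11 (median -0.26), and 1 without day 14 and the day 11 Thy1-SSEA1- pair (median -0.13). Calls over all genes fell as well. Of 17242 genes 1310 were lower in the main fit, and 492, 564 and 241 in these fits in the same order. The members' share of calls was then near that of all genes. The count was 49 when the Dppa2/4 day 4 Thy1+SSEA1- library, whose Dppa2 was at control level, was left out. With quantile normalization, which gives every library the same distribution of values, 15 members were called lower and the median was -0.16. Of all genes 2019 were lower there. With no block 1 member and 88 of all genes were lower. An interaction test of the arm difference between SSEA1+ or GFP+ and SSEA1- pairs called 0 members higher and 0 lower (limma, adjusted over all genes, 0.423% of all genes in each direction; 0 members at an unadjusted p under 0.05).

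**Figure D4:**
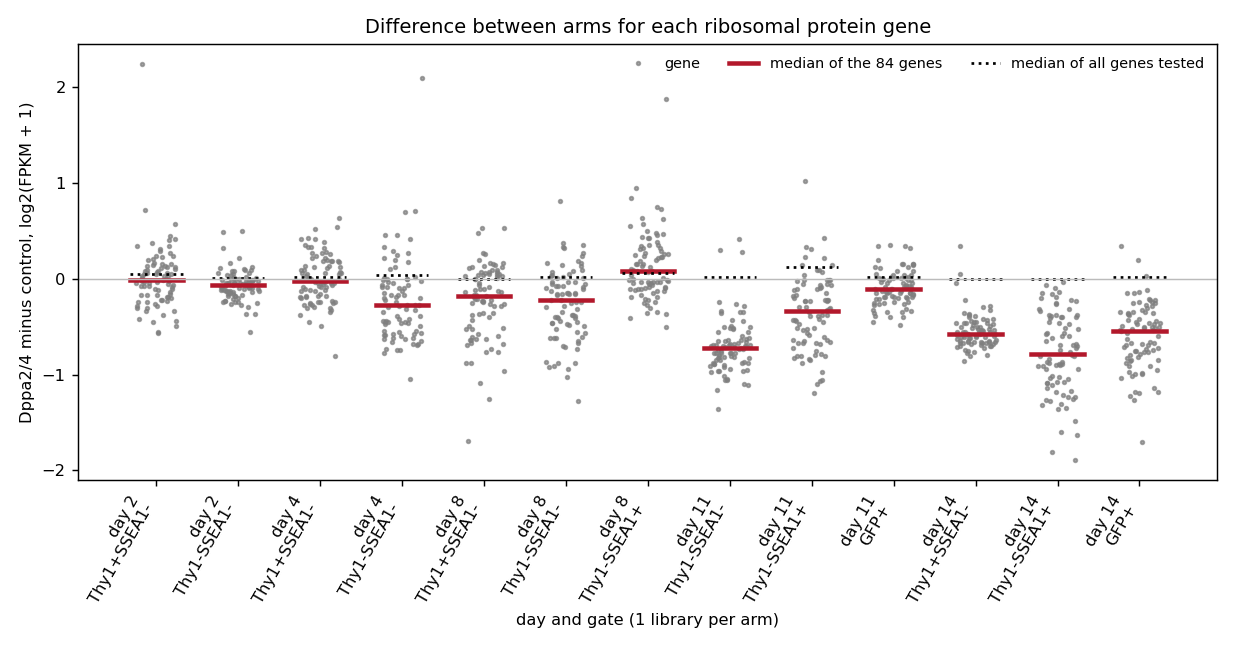
Difference between arms (Dppa2/4 minus control, log2(FPKM + 1)) for each of the 84 genes in the 13 pairs of libraries, ordered by day and gate, with the members' median (solid bar) and the median of all genes tested (dotted). The members' medians leave the all-gene medians most at day 14 (-0.54 to -0.78) and in the day 11 Thy1-SSEA1- pair (-0.73).

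Rpl14, a large subunit protein and the member with the smallest adjusted p, was named after its values were seen. It was lower in the Dppa2/4 arm in 13 of 13 pairs, with a log2 change of -0.44 ± 0.08 (SE) and an adjusted p of 0.00208 in limma. In GFP+ cells it stood at 1649 FPKM at day 11 and 2545 at day 14 in the control arm, and at 1409, 1489 and 1593 FPKM at days 8, 11 and 14 in the Dppa2/4 arm. The control day 14 value thus lay above every Dppa2/4 GFP+ value.

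Among members with a role outside the ribosome's core, Rpsa, the laminin receptor precursor that is also a small subunit protein, was lower in 13 of 13 pairs (log2 change -0.43 ± 0.09, limma adjusted p = 0.00458). Of the stalk, Rplp2 was lower in 11 of 13 pairs (-0.48 ± 0.13, limma adjusted p = 0.0165). Rplp0 (-0.40, limma adjusted p = 0.0527) and Rplp1 (-0.51, 0.0867) did not pass, and passed when the doubted Dppa2/4 library of day 4 was left out (0.0415 and 0.0492). Both genes of the 5S particle were lower: Rpl11 by a log2 change of -0.32 ± 0.09 (limma adjusted p = 0.0193) and Rpl5 by -0.22 ± 0.08 (0.0477), which did not pass without the doubted day 4 library (0.0787). Neither passed with no filter on low values (Rpl11 0.0509, Rpl5 0.0742) or with quantile normalization (0.119 and 0.438), in limma throughout. These genes belong to the same family-wide shift and were not separated from it by a test.

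The lowest fitted changes were those of Rpl36 (-0.52 ± 0.25, limma adjusted p = 0.141), Rplp1, Rpl18 (-0.50 ± 0.18, 0.0569), Rpl28 (-0.49 ± 0.15, 0.0278), Rplp2 and Rps9 (-0.48 ± 0.14, 0.0252). Rpl36 swung so widely between libraries that its change did not pass, although it was the lowest estimate. Rpl28, a large subunit protein on chromosome 7, showed the pattern with its values: in Thy1-SSEA1+ cells the control arm held 449, 766 and 1051 FPKM at days 8, 11 and 14. The Dppa2/4 arm held 626, 415 and 408 FPKM on those days. The Dppa2/4 library was thus the higher at day 8 and the lower at days 11 and 14.

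Of the GC-rich members 22 of 40 were called lower and of the GC-poor ones 23 of 40, with medians of -0.36 and -0.25. At the other end, Rps4y2 (0.42 ± 0.29, limma adjusted p = 0.301), Rpl3l (0.15, 0.188) and Rpl10l (0.08, 0.434) had estimates above 0 and did not pass. Rps27l (-0.07, 0.639), Rpl7 (-0.08, 0.502), Rps24 (-0.12, 0.416) and Rpl26 (-0.14, 0.318) lay between the members' median and that of all genes. Of the 6 paralogs of these lists 1, Rpl7l1, was called lower (-0.33 ± 0.09, limma adjusted p = 0.0155). Rpl39l (-0.21, 0.324) and Rpl22l1 (-0.22, 0.2) did not pass. Of the 7 ubiquitous relatives, Rpl10 (-0.37, 0.00425, lower in 13 of 13 pairs), Rpl22 (-0.30, 0.0158) and Rpl3 (-0.26, 0.0279) were lower, and Rps4x (-0.23, 0.0814), Rps27 (-0.18, 0.183), Rpl39 (-0.14, 0.422) and Rpl7 did not pass.

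Related gene sets were counted in the same fit. Of 43 ribosome assembly genes, 22 were lower and 0 higher in the Dppa2/4 arm, with a median of -0.37. Nolc1, a nucleolar phosphoprotein (-0.65), Polr1a, the largest subunit of RNA polymerase I (-0.61), and Rrp12, a subunit export factor (-0.61), had the lowest changes among them. Of 32 translation factors and other TOP mRNAs, 12 were lower and 1 was higher. Eef2, the translocation factor, fell (-0.44), Eif3k, a subunit of eIF3, fell (-0.35), and the helicase gene Eif4a2 rose (0.53). Of 76 mitochondrial ribosomal protein genes, 11 were lower (median -0.14), led by Mrpl36 (-0.50), Mrpl23 (-0.48) and Mrps18b (-0.40). Of the 18 mTOR and Larp1 regulators, 3 were lower, namely the translation repressor Eif4ebp2 (-0.43), the S6 kinase gene Rps6kb2 (-0.31) and Larp1 itself (-0.26), and Larp4b was higher (0.34). Gnb2l1, the gene of the small subunit scaffold RACK1 that the symbol rule leaves out, was lower (-0.36, 4333 FPKM in the control and 3322 in the Dppa2/4 arm). Of the marker lists, Col1a1 was lower (-0.79) and Cd68 higher (0.54), 1 of 5 fibroblast and 1 of 1 macrophage markers tested, and 0 of 4 pluripotent markers passed; the part of these in the result was not tested.

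The comparison of GFP+ with Thy1-SSEA1+ cells, at the last step of the sorting scheme, addressed the paralogs. In GFP+ cells 10 of 84 members were higher and 0 lower over 5 pairs of libraries of the same arm and day (limma with arm and day as a block), against 17.1% of all genes higher and 24.3% lower. The members' median change was 0.08 (log2) and that of all genes -0.09. The share of members called was below the background in both directions, with 10 of 84 higher against 17.1% and 0 lower against 24.3%. The family as a whole thus did not stand out as higher, and none of it was called lower. The largest changes belonged to its rarest members.

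Rpl39l (ENSMUSG00000039209, chr16:10170226-10174911) rose most. In GFP+ cells it stood at 35.5 FPKM at day 11 and 82.5 at day 14 in the control arm, and at 18.0, 45.3 and 70.7 at days 8, 11 and 14 in the Dppa2/4 arm. In Thy1-SSEA1+ cells of days 8, 11 and 14 it stood at 4.81, 2.39 and 29.5 FPKM in the control and at 3.5, 5.86 and 13.8 in the Dppa2/4 arm. Each GFP+ library was above the Thy1-SSEA1+ library of its own arm and day, although the groups overlap when all days are pooled. The log2 change was 2.40 ± 0.29 (SE, 5 of 5 pairs, limma adjusted p = 0.00387).

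Rpl39l was not limited to GFP+ cells. Its highest value of all was in the control rtTA-MEF library, 85.2 FPKM, with 44.0 in the Dppa2/4 one. It stood at 20.4, 13.7, 7.66 and 13.8 FPKM in control Thy1+SSEA1- cells (days 2, 4, 8 and 14) and at 16.5, 7.43, 6.24 and 7.62 in the Dppa2/4 arm. In the ordering of gates by median, rtTA-MEF (64.6) and GFP+ (45.3) were followed by Thy1-SSEA1- (12.4), Thy1+SSEA1- (10.7), Thy1+SSEA1+ (6.30) and Thy1-SSEA1+ (5.33). Neighbours in that order overlapped between libraries in each case. In Thy1-SSEA1- against Thy1+SSEA1- cells it was higher in 7 of 7 pairs (0.54, limma adjusted p = 0.158), and in Thy1-SSEA1+ against Thy1-SSEA1- cells lower in 4 of 5 (-0.99, 0.0866); neither passed. Per length it made up 1.82 to 5.39% of the sum of Rpl39l and Rpl39 in GFP+ cells, 5.49 to 6.11% in rtTA-MEFs and 0.253 to 1.71% in Thy1-SSEA1+ cells.

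Rpl10l (ENSMUSG00000060499, chr12:66283379-66284401, annotated without introns) was the member most restricted to late cells. It was listed at 0 in both rtTA-MEF libraries and was at most 0.126 FPKM in the Thy1+ gates. In Thy1-SSEA1- cells it ran from 0 to 0.859 FPKM and in Thy1-SSEA1+ cells from 0.0706 to 3.68, the highest values of each at day 14. In GFP+ cells it stood at 6.86 and 10.6 FPKM at days 11 and 14 in the control and at 5.36, 7.98 and 13.7 at days 8, 11 and 14 in the Dppa2/4 arm. GFP+ libraries did not overlap any other gate. The log2 change against Thy1-SSEA1+ was 2.25 ± 0.24 (5 of 5 pairs, limma adjusted p = 0.00318). On this scale with 1 added the change of so low a gene is understated; with 0.1 added it was 3.43. Even so, it made up at most 1.65% of the sum of Rpl10l and Rpl10, since Rpl10 itself is abundant.

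Rpl3l, whose expression is known from muscle, stayed low and was also higher in GFP+ cells. It stood at 0.915 and 2.53 FPKM in control GFP+ cells and at 0.96, 0.915 and 1.64 in Dppa2/4 GFP+ cells, against 0.0561 to 0.383 in Thy1-SSEA1+ cells, without overlap. Its log2 change was 0.87 ± 0.15 (5 of 5 pairs, limma adjusted p = 0.00873), at levels near the filter on low values. It passed that filter only through the GFP+ libraries, since outside them only the Dppa2/4 day 2 Thy1+SSEA1+ library reached 1 FPKM. Its test is therefore not independent of the filter and is given as a description. Thy1+SSEA1+ cells of the Dppa2/4 arm also held it, at 1.03 FPKM at day 2 and 0.477 at day 4. Rps4y2 was higher in GFP+ cells by 0.82 ± 0.15 (5 of 5 pairs, limma adjusted p = 0.011). Its values overlapped between these gates, 17.0 to 54.6 FPKM against 7.72 to 31.1. In some early Dppa2/4 libraries it was high, with 50.2 FPKM in Thy1+SSEA1- cells at day 2 against 9.84 in the control, and 51.8 and 41.3 in Thy1+SSEA1+ cells. It was also high in Thy1-SSEA1- cells at day 4 (22.9 against 4.60) and in rtTA-MEFs (41.8 against 12.8). In others it was near the control, with 10.2 against 7.0 in Thy1-SSEA1- cells at day 2 and 8.89 against 7.67 in the doubted day 4 pair of Thy1+SSEA1- cells. In Thy1-SSEA1+ cells the Dppa2/4 library was the higher at day 8 (31.1 against 7.72) and the lower at day 14 (9.65 against 25.6). In GFP+ cells at day 14 it was also the lower (23.3 against 54.6). As a retrocopy Rps4y2 may share reads with Rps4x.

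**Figure D5:**
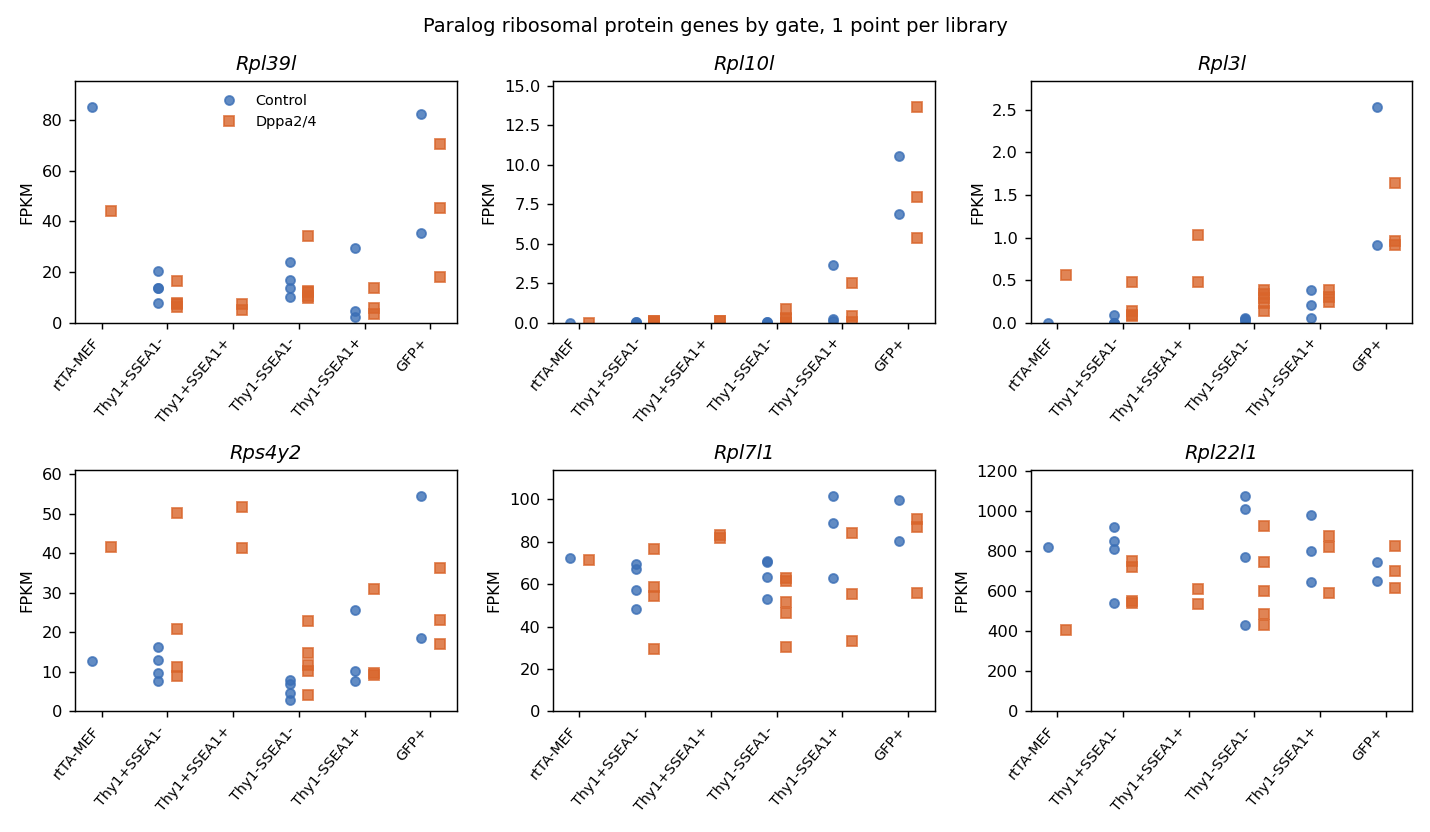
FPKM of 6 paralog members by gate, with 1 point per library (circles control, squares Dppa2/4) on linear axes that start at 0 and differ between panels. Rpl10l lies at 5.36 to 13.7 FPKM in GFP+ cells and at most 3.68 elsewhere, Rpl3l reaches 2.53 in GFP+ cells and 1.03 elsewhere, Rpl39l is high in rtTA-MEF and GFP+ libraries, and Rpl22l1 spreads over every gate.

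The remaining members higher in GFP+ cells changed little in size. Rpl7l1 rose by 0.40 ± 0.11 (limma adjusted p = 0.0389), Rpl22 by 0.38 ± 0.09 (0.024) and Rpl5, of the 5S particle, by 0.33 ± 0.07 (0.0148). Rps13 rose by 0.30, and Rpl17 and Rpl27a, named here to complete the 10, by 0.25 each. Rpl11, the partner of Rpl5, was not among the 10. The lowest estimates were Rpl36 (-0.34, limma adjusted p = 0.211), Rps9 (-0.25, 0.191), Rps19 (-0.23, 0.201), Rpl26 (-0.19, 0.18), Rpl22l1 (-0.19, 0.286) and Rps15 (-0.17, 0.396), which did not pass. With quantile normalization 4 members were higher and 5 lower, against 3533 and 3223 of all genes, and the members' median turned to -0.06. When libraries were rescaled to the same sum over genes outside the family it turned to -0.01, with 5 higher. Rpl39l, Rpl10l and Rpl3l, the last with the limit of its filter given above, passed under both scalings and without each pair in turn. Without day 14, 0 members and 0 of all genes passed, with 3 pairs left; Rpl39l was then at 2.75 (limma adjusted p = 0.0592).

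In the same fit 30 of 43 ribosome assembly genes were higher in GFP+ cells and 0 lower, with a median of 0.66. Heatr1, a small subunit processome protein (1.18), Nat10, an rRNA acetyltransferase (1.17), and Rrp9, a U3 snoRNP protein (1.10), had the largest changes. Mitochondrial ribosomal protein genes had 22 of 76 higher and 3 lower, led by Mrpl15 (0.98), Mrps24 (0.95) and Mrps31 (0.76). Of 32 translation factors and other TOP mRNAs, 8 were higher, among them Eif3l (0.54), Eif2s3x (0.41) and Eif3g (0.40). Among mTOR and Larp1 regulators, 4 of 18 were higher, including the translation repressors Eif4ebp1 (0.70) and Eif4ebp2 (0.66), and Akt1s1 was lower (-0.49). The pluripotent markers were higher, 4 of 4, and the fibroblast markers lower, 5 of 5. Of the endothelial list 1 gene, Pecam1, was tested, and it was higher (2.56), while the 1 macrophage marker tested did not pass.

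In the main fits between the earlier gates no member passed. In Thy1-SSEA1+ against Thy1-SSEA1- cells, over 5 pairs, 0 members were higher and 0 lower, against 8.24% of all genes higher and 10.5% lower (limma; 2 members at an unadjusted p under 0.05). The members' median was 0.17, but its sign changed between pairs: 0.67 at day 11 and 0.24 at day 8 in the Dppa2/4 arm, 0.27 at day 11 in the control arm, -0.09 at day 8 in the control arm and -0.24 at day 14 in the Dppa2/4 arm. The largest of these, 0.67, includes the Dppa2/4 day 11 Thy1-SSEA1- library. Rps4y2 (0.64), Rpl36 (0.60), Rpl8 (0.57), Rpl27 (0.48), Rpl18 (0.44) and Rps15 (0.40) had the highest estimates, and Rpl39l, Rpl39 (-0.20), Rpl22l1 (-0.12), Rpl27a (-0.07), Rpl23 (-0.06) and Rps13 (-0.04) the lowest. In the same fit 20 of 43 ribosome assembly genes were higher and 0 lower (median 0.59), although 0 of all genes passed in limma without the control day 11 pair; the assembly genes were led by Tcof1, the treacle gene (1.25), Rrp9 (0.98) and Dkc1, the pseudouridine synthase of box H/ACA particles (0.94).

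In Thy1-SSEA1- against Thy1+SSEA1- cells, over 7 pairs, 0 members were higher and 0 lower (limma, 8 members at an unadjusted p under 0.05). Of all genes 0% were higher and 0.0058% lower. With almost no gene called, this fit cannot tell whether the family differs between these gates. The members' median difference was -0.34 and -0.39 at day 2 in the control and Dppa2/4 arms and -0.37 at day 4 in the Dppa2/4 arm. At day 8 it was above 0, at 0.19 in the control and 0.14 in the Dppa2/4 arm, with 80 and 81 of 84 members higher. Beside the low day 2 Thy1-SSEA1- values, Col1a1 was at its highest of all there, 2431 FPKM in the control and 2099 in the Dppa2/4 library; its part was not tested. Rps3a, a small subunit protein, was higher in 7 of 7 pairs and did not pass (0.40 ± 0.10, limma adjusted p = 0.195). It went against the members' median at days 2 and 4. At day 8, and at day 14 in the Dppa2/4 arm (members' median 0.10), it went with it. In Thy1-SSEA1- cells it stood at 702 and 746 FPKM at day 2, against 497 and 435 in Thy1+SSEA1- cells. Rps27l (0.26), Rps20 (0.18), Rpl10l (0.12) and Rpl36a (0.08) had the next highest estimates, and Rpl36 (-0.48), Rpl35a (-0.46), Rps4y2 (-0.43), Rps18 (-0.41), Rpl34 (-0.40) and Rpl18 (-0.35) the lowest; none passed in limma.

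Over days 2 to 14 no member passed the test of a change per day within the Thy1- or Thy1+ SSEA1- gates. In Thy1+SSEA1- cells, over 8 libraries, 0 members rose and 0 fell per day, with 0% of all genes in either direction (limma with arm as covariate; 6 members at an unadjusted p under 0.05). When the doubted Dppa2/4 library of day 4 was left out, 1427 of the 17242 genes rose and 924 fell, and still 0 members passed. Rpl7l1 had the lowest slope, -0.07 per day (log2, limma adjusted p = 0.0822). It stood at 69.3, 67.0, 57.1 and 48.4 FPKM on days 2, 4, 8 and 14 in the control and at 76.5, 54.3, 58.8 and 29.3 in the Dppa2/4 arm. Rps19 (0.09), Rpl36 (0.08), Rps16 (0.08), Rpl37a (0.07) and Rps21 (0.07) were among the highest slopes. In Thy1-SSEA1- cells, over 9 libraries, 0 members rose and 0 fell, against 1.74% and 0.841% of all genes (limma; 7 members at an unadjusted p under 0.05). Rpl35a (0.13 per day, limma adjusted p = 0.131), Rpl7 (0.08), Rpl30 (0.08), Rpl22l1 (0.07), Rps16 (0.07) and Rps20 (0.07) had the highest slopes there, and Rpl39l (-0.09, 0.184), Rps4y2 (-0.07), Rpl41 (-0.05), Rplp0 (-0.05), Rpl36 (-0.04) and Rpl7l1 (-0.03) the lowest.

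The abundant paralogs Rpl22l1 and Rps27l made up a large part of their pair in every gate. Per length, Rpl22l1 was 20 to 43.0% of the sum of Rpl22l1 and Rpl22, with medians of 36.9% in Thy1-SSEA1- and 24.8% in GFP+ cells. Rps27l was 20.9 to 44.0% of the sum of Rps27l and Rps27, highest in the control rtTA-MEF library. Rpl22l1 ran from 407 to 1075 FPKM, the highest in control day 11 Thy1-SSEA1- cells, and did not pass in any comparison. Rpl7l1 stayed at 0.706 to 3.58% of its sum with Rpl7.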

How the data were processed

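Polyadenylated RNA was sequenced; TopHat2, Cuffdiff and the mm10 build are named per the submitters' processing notes, with neither version nor role. The authors deposited FPKM values per gene (fragments scaled to transcript length and library size, not counts), 1 column per library. Of 33 value columns 32 were matched to listed samples; 1 was not used, and the control day 11 Thy1+SSEA1- sample was not analysed here. The columns taken for the rtTA-MEF libraries give arm and day 2 but no gate, and every other day 2 sample has a column of its own. Gene positions come from GENCODE vM21 (GRCm38), matched by identifier for 32933 of 37973 genes, and promoter letters from RefSeq (GRCm38.p6), the first entry per symbol.

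Tests used limma 3.58.1 (R 4.3.3; lmFit, eBayes with trend) on log2(FPKM + 1), for the 17242 genes with at least 1 FPKM in at least 2 libraries, with Benjamini-Hochberg adjustment over all of them and a threshold of 0.05, two-sided. The fit was tested on simulated data. Nothing says that blocks came from separate cultures, so p-values measure only the spread between these samples. Transcript GC content is that of the transcript with the longest coding sequence; tables were handled in Python 3 with pandas. Depth was inferred from the smallest nonzero steps of genes with 1 transcript, so counting intervals were not computed.

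Members and gene lists were chosen with earlier results of these data known. Per comparison the 6 highest and 6 lowest members with a mean of at least 1 FPKM are named, with the paralogs, their ubiquitous relatives, the 5S particle and the stalk and laminin receptor genes, and up to 3 called genes of each other list; the Rps4l of the paralog list has no row of that name, and 1 member that the rule names is not reported here. Alternatives were another pseudocount (0.1), no filter, a mean of at least 5 FPKM, 3 other scalings, no block, and leaving out libraries or pairs; leaving out whole days was added after the data were seen.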

Additional observations from a re-analysis of the deposited data

How the results depend on the processing

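The count of members lower in the Dppa2/4 arm, 45, ran from 16 (without day 11 Thy1-SSEA1-) to 50 (without day 8 Thy1-SSEA1+) when each pair was left out. It was 22 with no filter, 15 with quantile normalization and 1 with no block. Of all genes 1310 were lower in the main fit, and 855 and 1280 without those pairs. They numbered 1103 of 28566 with no filter, 2019 with quantile normalization and 88 with no block. Leaving out whole days, an alternative added after the data were seen, gave 21 without day 8, 3 without day 11, 3 without day 14 and 1 without day 14 and the day 11 Thy1-SSEA1- pair. Of all 17242 genes 656, 564, 492 and 241 were lower in these fits, in the same order. Members higher in that arm were 1 with a pseudocount of 0.1 and 1 without day 14. In GFP+ against Thy1-SSEA1+ cells the 10 members higher became 6 with no filter, 4 with quantile normalization (with 5 lower) and 5 with an equal sum over other genes. They were 3 with no block, 5 without the control day 11 GFP+ library, 0 without day 14, and 4 to 6 when each pair was left out. Of all genes 2957 were higher in the main fit and 3533 with quantile normalization (with 3223 lower). The count of all genes was 2302 with an equal sum, 1528 with no block and 0 without day 14. In Thy1-SSEA1+ against Thy1-SSEA1- cells 1 member was higher with a pseudocount of 0.1, 1 with an equal sum over other genes and 1 without day 14, when 1 was also lower; without each pair the counts ran from 0 to 1 in each direction. The change per day in Thy1-SSEA1- cells had 1 member higher with a pseudocount of 0.1. With fewer pairs the fit has fewer degrees of freedom; the cause of the other shifts was not tested. Of the values of named members under these alternatives, 3220 kept their side of the threshold, 107 fell short of it, and 31 newly passed. The 3220 include any value that changed direction while passing in neither fit. Pairs of libraries were matched by day and gate or by arm and day; with 1 library per group there was no replicate number to use as a block. Without counts or replicates the precision of a single FPKM value is not known.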

Other observations

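The rtTA-MEF libraries, whose genotype lists no Col1a1-OSKM allele, belong to no comparison above. Rps15a had its highest value of all libraries in the control one, 8878 FPKM, as did Rps27l, the p53-inducible paralog, at 2489 FPKM, against 6151 and 1025 FPKM in the Dppa2/4 one. Rpl5 stood at 949 and 491 FPKM and Rpl22 at 2055 and 1082 in the same order, while Rpl36 (143 and 185 FPKM) and Rps15 (909 and 1089 FPKM) lay the other way. The GC contrast among members was -0.15 in the control library and 0.19 in the Dppa2/4 library, and -0.18 and 0.10 among other genes. Each is 1 library, so these differences have no replicate check.

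The Thy1+SSEA1+ libraries of the Dppa2/4 arm also stand outside the comparisons. Members took 12.1% of the summed FPKM at day 2 and 14.8% at day 4, and Nanog, a pluripotency factor, stood at 3.20 and 50.5 FPKM. Rpl7l1 was at 82.0 and 83.0 FPKM there, and Rpl39l at 7.42 and 5.17 FPKM. Rpl10l was at 0.126 and 0.0813 FPKM, below every GFP+ library.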
